A study of Homo sapiens with 12 samples.

Results

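The genes described here are the replication-dependent histone genes of 2 human hepatocellular carcinoma cell lines, taken as every row of the deposited tables whose symbol has the standard form of a clustered histone gene (H1-1 to H1-6, H2AC, H2BC, H3C or H4C with a number). The rule found 66 of the 62703 listed genes: 6 for the linker histone H1, 16 for H2A, 17 for H2B, 13 for H3 and 14 for H4. By RefSeq positions on GRCh38.p14, 55 of them lie on chromosome 6 between 25726063 and 27893891 and 11 on chromosome 1 between 149782689 and 149887965. Messenger RNA had been sequenced in 12 libraries, 3 for each of 4 groups: Huh7 shSLC6A8, Huh7 shNC, Hep3B shSLC6A8 and Hep3B shNC. Huh7 and Hep3B are established lines that keep part of the liver cell programme, shSLC6A8 is a hairpin RNA against the creatine transporter SLC6A8, and shNC is the control hairpin. All 4 groups carried the same exposure of 24 hours of hypoxia, so no comparison is with normal oxygen, and the labels name 1 hairpin per target and do not say whether replicate libraries came from separate cultures. The p-values below therefore rest on library-to-library spread, which could be technical alone.

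Replication-dependent histones supply the protein that packages newly copied DNA. H2A, H2B, H3 and H4 form the core around which DNA is wound, and H1 binds the DNA between cores. Their genes lie in clusters, have no introns in their classical form and are transcribed mainly in S phase. Most of their messages end just after a stem-loop that the binding protein SLBP recognises, and so lack a poly(A) tail. A part of these genes can also run past the stem-loop into a polyadenylated form, mostly outside S phase or in differentiated cells. A library built on poly(A) tails therefore sees an unknown part of the histone message, and the labels name an mRNA kit.

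The stem-loop and the way transcripts are annotated around it bear directly on which copies can be counted. The motif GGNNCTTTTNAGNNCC, read on the transcript strand, was found in GENCODE 29 transcripts of 25 of the 62 members that matched by identifier, against 80 of all 58676 genes (0.136%). Of those 25 members, 19 have an annotated transcript that goes on for at least 100 bases past it. The motif sequences of 6 members are shown because these genes carry the results below, 5 bases on each side included, with the 16 bases of the stem-loop in capitals. Each lies in the annotated 3′ untranslated region.
H2AC6 (chr6:26124664-26124689, GRCh38, plus strand): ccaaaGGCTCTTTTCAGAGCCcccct
H2BC21 (chr1:149886183-149886208, GRCh38, minus strand): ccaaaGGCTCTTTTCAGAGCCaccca
H2BC5 (chr6:26158582-26158607, GRCh38, plus strand): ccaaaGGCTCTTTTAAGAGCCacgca
H4C8 (chr6:26285126-26285151, GRCh38, minus strand): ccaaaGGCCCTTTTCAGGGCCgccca
H4C14 (chr1:149833027-149833052, GRCh38, plus strand): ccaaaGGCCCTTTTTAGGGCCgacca
H4C15 (chr1:149860764-149860789, GRCh38, minus strand): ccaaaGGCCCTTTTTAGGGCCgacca

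The bases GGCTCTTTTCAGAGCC occurred in 13 of the 25 members, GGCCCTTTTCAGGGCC and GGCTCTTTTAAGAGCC in 4 each, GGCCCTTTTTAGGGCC in 3 and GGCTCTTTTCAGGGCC in 1. The 26 bases shown for H4C14 and H4C15 are the same. The longest annotated run past the stem-loop was 1729 bases for H2BC21, 1655 for H4C8, 1128 for H2AC6 and 39 for H2BC5, for which a longer transcript without the motif is also annotated. H2BC12 and H1-2 had no match because their GENCODE 29 transcripts, of 381 and 642 bases, do not contain it. A missing match says only that these letters are not in the annotated transcript. The runs are those of GENCODE 29, and the deposited lengths need not hold them: that of H4C8 was 409 bases.

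The promoters of the genes with the highest or most divergent values are shown next, as the 250 bases before the RefSeq start site. Capitals mark 3 motifs. The first is TATAAA, which on the other strand reads TTTATA. The next is CCAAT, which on the other strand reads ATTGG. The last is the octamer ATTTGCAT, searched on both strands like the others. A TATAAA and its reverse overlap once in H2BC12, and both are counted. The window of H2AC6 also holds nearly all of the window of its neighbour H2BC4, which is transcribed away from it.
H2BC12 (chr6:27146859-27147108, GRCh38.p14, minus strand): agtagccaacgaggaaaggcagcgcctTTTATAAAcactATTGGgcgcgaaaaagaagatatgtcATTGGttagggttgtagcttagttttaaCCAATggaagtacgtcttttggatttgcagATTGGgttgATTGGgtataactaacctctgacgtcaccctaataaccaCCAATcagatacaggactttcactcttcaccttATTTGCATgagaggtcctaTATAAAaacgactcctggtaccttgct
H2AC6 (chr6:26123922-26124171, GRCh38.p14, plus strand): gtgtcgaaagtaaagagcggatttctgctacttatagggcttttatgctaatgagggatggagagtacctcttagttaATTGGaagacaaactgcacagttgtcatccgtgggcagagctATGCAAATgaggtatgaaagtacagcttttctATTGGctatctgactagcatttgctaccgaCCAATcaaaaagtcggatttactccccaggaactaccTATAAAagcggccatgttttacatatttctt
H2BC5 (chr6:26157871-26158120, GRCh38.p14, plus strand): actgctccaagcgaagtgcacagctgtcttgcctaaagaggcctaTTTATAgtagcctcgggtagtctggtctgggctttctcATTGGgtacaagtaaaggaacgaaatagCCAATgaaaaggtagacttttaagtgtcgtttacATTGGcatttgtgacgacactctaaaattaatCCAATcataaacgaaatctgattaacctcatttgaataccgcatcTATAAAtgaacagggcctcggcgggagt
H2BC21 (chr1:149886683-149886932, GRCh38.p14, minus strand): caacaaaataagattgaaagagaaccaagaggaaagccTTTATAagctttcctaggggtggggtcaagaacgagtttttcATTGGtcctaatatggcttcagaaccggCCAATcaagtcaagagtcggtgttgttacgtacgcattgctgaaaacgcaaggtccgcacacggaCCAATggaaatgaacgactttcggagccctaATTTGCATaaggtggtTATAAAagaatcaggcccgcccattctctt

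RefSeq promoters were given for 61 members. TATAAA, the core of the TATA box, was present in 67.2% of them against 10.7% of all 35116 promoters of the same length. CCAAT was present in 85.25% against 32.0%, but in 25.0% of the H4 promoters. ATTTGCAT, the octamer known from H2B promoters, was present in 82.4% of H2B and 73.3% of H2A promoters and in no H1 or H4 promoter, against 1.63% of all promoters. Of the sequences shown, that of H2BC5 has no octamer, and the others have 1 each.

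Library totals ran from 21065965 to 28078068 estimated counts. The hairpin target was checked in every library: SLC6A8 had 8.62, 8.59 and 11.01 CPM (counts scaled to library size by TMM) in Huh7 shSLC6A8, against 35.55, 36.9 and 36.6 CPM in Huh7 shNC, and 34.5, 33.8 and 35.1 CPM in Hep3B shSLC6A8, against 361, 378 and 371 CPM in Hep3B shNC. All 10 hepatocyte markers checked had counts in every group, with a summed level of 16700 to 17770 CPM in Hep3B shSLC6A8, 29020 to 30470 CPM in Hep3B shNC, 18370 to 18770 CPM in Huh7 shSLC6A8 and 13780 to 14450 CPM in Huh7 shNC. The 10 markers of other cell types summed to 3.47 to 4.53 CPM in Hep3B shSLC6A8, 13.1 to 13.7 CPM in Hep3B shNC, 18.4 to 20.7 CPM in Huh7 shSLC6A8 and 22.4 to 23.1 CPM in Huh7 shNC, and among these CDH5 was at 0 in all libraries of 3 groups, VWF in both Hep3B groups, ACTA2 in Hep3B shSLC6A8 and CD3E in Huh7 shSLC6A8. Their part in the results below was not tested.

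Histone messages were a small part of these libraries. The 66 genes together took 0.0701%, 0.0717% and 0.073% of all counts in Huh7 shSLC6A8, against 0.0473%, 0.0483% and 0.0475% in Huh7 shNC. In Hep3B shSLC6A8 they took 0.0138%, 0.012% and 0.0137%, against 0.0072%, 0.0077% and 0.0074% in Hep3B shNC. In both lines every shSLC6A8 library was above every shNC library. In bulk RNA, fewer cells with a message and less message per cell cannot be told apart.

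At least 10 estimated counts in every library of the line were reached by 23 members in Huh7 and by 13 in Hep3B. The 11 that reached it in both lines were H1-2, H2AC6, H2AC18, H2BC4, H2BC5, H2BC11, H2BC12, H2BC15, H2BC21, H3C6 and H3C10. H2AC8, H2AC11, H2AC17, H2BC8, H2BC9, H2BC17, H3C3, H3C15, H4C8, H4C12, H4C14 and H4C15 reached it only in Huh7, and H2AC20 and H4C1 only in Hep3B. Counts of 0 in every library of the line were found for 9 members in Huh7 and 14 in Hep3B. H2AC19, H2BC1, H2BC10, H3C8 and H4C7 were at 0 in all 12 libraries. By type, 9 of 17 H2B genes, 5 of 16 H2A, 4 of 13 H3, 4 of 14 H4 and 1 of 6 H1 genes reached 10 counts in every Huh7 library. In Hep3B these were 6 H2B, 3 H2A, 2 H3, 1 H4 and 1 H1 gene. The remaining 34 members in Huh7 and 39 in Hep3B had counts between these limits.

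**Figure D1:**
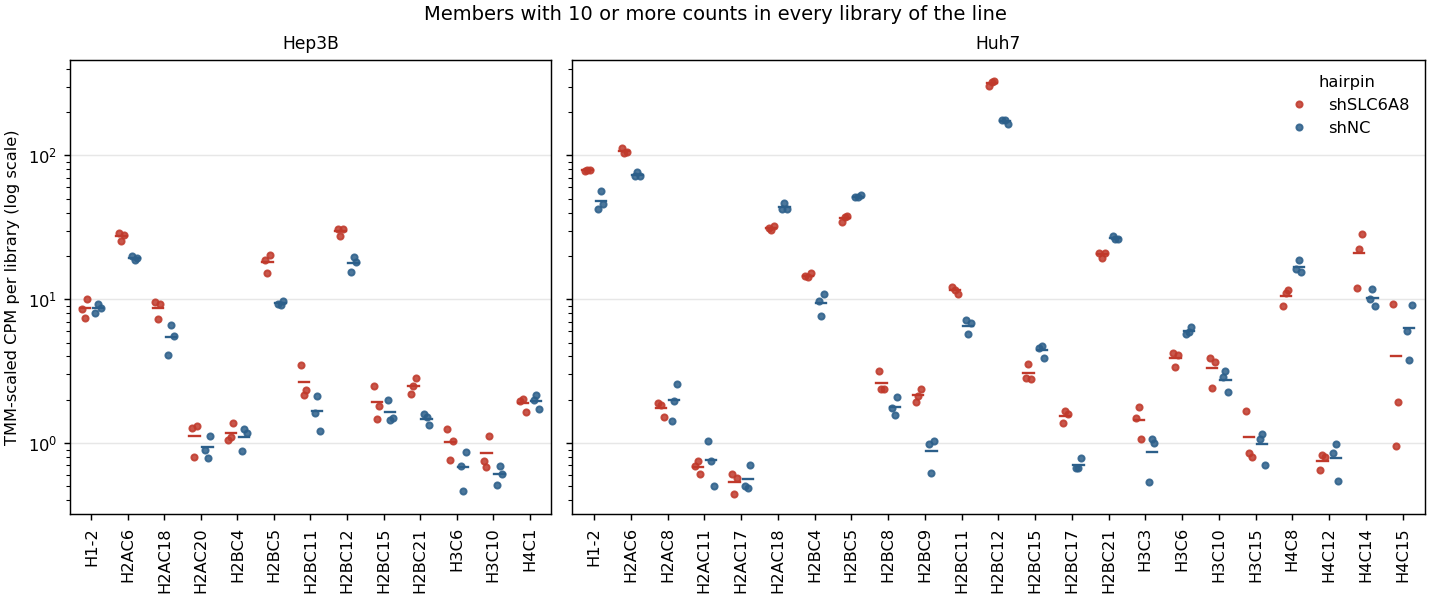
Level of each member with 10 or more estimated counts in every library of the line, in TMM-scaled CPM on a log axis, for Hep3B (left, 13 genes) and Huh7 (right, 23 genes). Points are libraries and short lines are group means, with shSLC6A8 left of shNC; H2BC12 in Huh7 lies between 304.5 and 330.4 CPM in shSLC6A8, against 165 to 176 CPM in shNC.

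Levels of different genes can be set side by side only per length, for which the deposited TPM values, which are scaled for transcript length, were used. H2BC12, which encodes an H2B, was the most abundant member in all 4 groups, at 1601 ± 5.58 TPM in Huh7 shSLC6A8 against 757 ± 23.8 TPM in Huh7 shNC, and at 105.7 ± 5.39 TPM in Hep3B shSLC6A8 against 55.5 ± 2.79 TPM in Hep3B shNC (SD, n = 3 each). Below it came H2AC6 with 209.8 ± 26.1 TPM, H1-2 with 208 ± 2.97 TPM, H2AC18 with 137 ± 5.69 TPM and H2BC5 with 119 ± 4.66 TPM in Huh7 shSLC6A8. In Huh7 shNC the order was H2AC18 with 169 ± 2.53 TPM, H2BC5 with 138 ± 8.53 TPM, H2AC6 with 116 ± 1.27 TPM and H1-2 with 111 ± 13.3 TPM. H2AC6 and H1-2 did not differ beyond their spread in either Huh7 group. In Hep3B shSLC6A8 the order was H2BC5 with 56.2 ± 8.60 TPM, H2AC6 with 54.7 ± 8.11 TPM, H2AC18 with 40.5 ± 4.61 TPM and H1-2 with 24.0 ± 2.11 TPM, and in Hep3B shNC it was H2AC6 with 34.97 ± 2.99 TPM, H2BC5 with 27.2 ± 2.05 TPM, H2AC18 with 22.2 ± 4.72 TPM and H1-2 with 20.9 ± 1.11 TPM. H2BC5 and H2AC6 lay within 1 SD of each other in Hep3B shSLC6A8, as did H2AC18 and H1-2 in Hep3B shNC. No H3 or H4 gene came among the 5 most abundant members of any group. H4C14 reached 36.6 ± 10.9 TPM in Huh7 shSLC6A8, and H4C1 reached 15.8 ± 2.81 TPM and H4C12 14.6 ± 2.29 TPM in Hep3B shSLC6A8, within 1 SD of each other.

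The question of the first comparison was how the histone messages of Huh7 differed between the hairpins. Some rose and others fell, and the H2B genes moved in both directions. Of the 30 members that passed the filter on low counts, 11 rose and 6 fell at an adjusted p under 0.05 by edgeR's quasi-likelihood test. That is 56.7% of those tested, against 61.8% of all 17022 genes tested (30.9% higher and 31.0% lower), so the share of histone genes called was near that of all genes. Their median log2 fold change was 0.59 against 0.00 over all genes tested. A member could pass the filter on the counts of either group alone, as H2AC13 and H2AC16 did on their shSLC6A8 counts. For such members a higher direction was favoured by the filter, which bears on the count of rises and on the median. Of the 30, 13 had every shSLC6A8 library above every shNC library, and 6 had the reverse. Over all genes tested in Huh7 those shares were 33.5% and 33.2%, so groups without overlap were common. The plot of fold changes shows both lines.

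**Figure D2:**
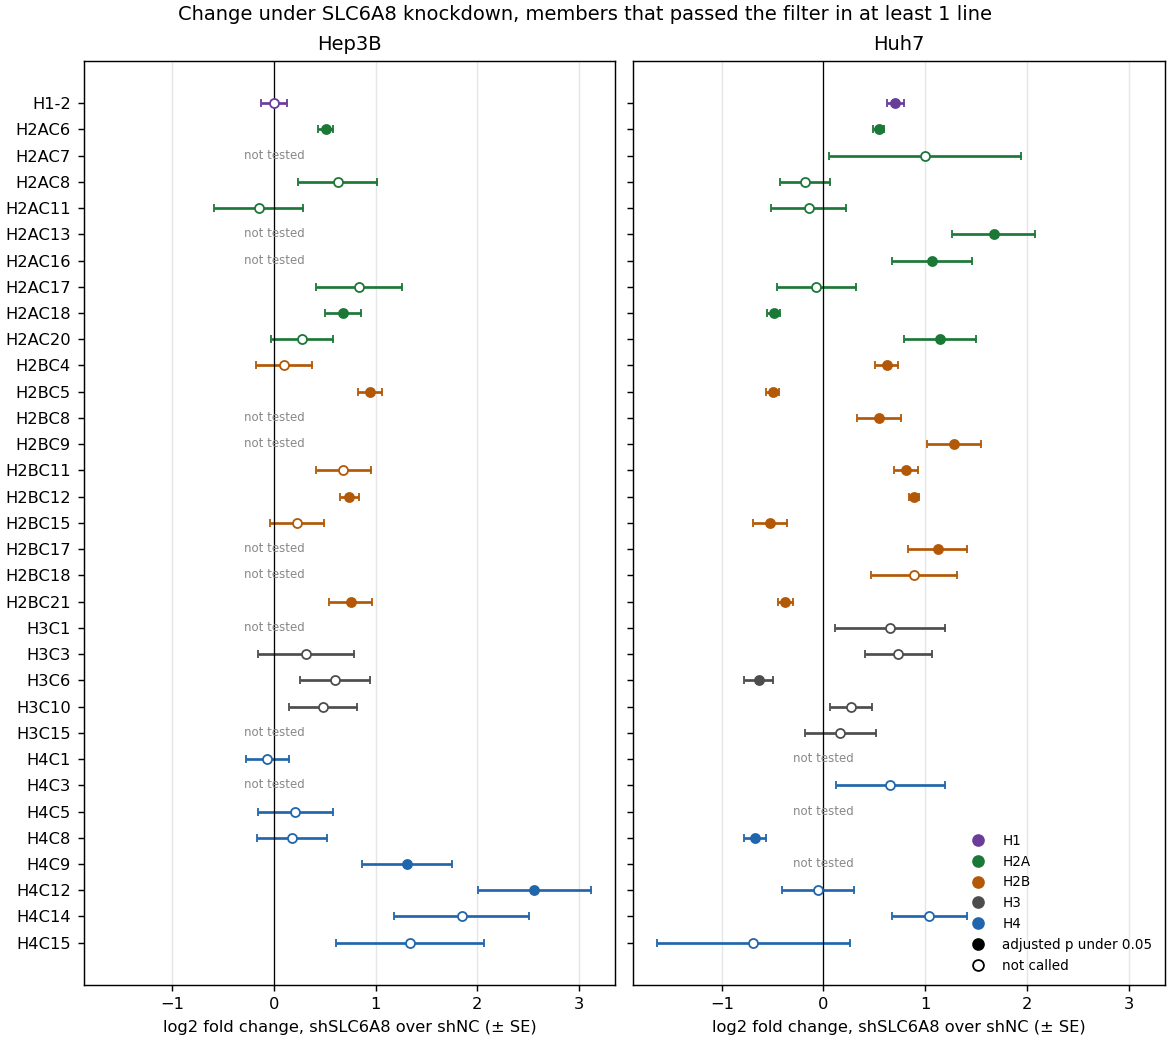
Log2 fold change of shSLC6A8 over shNC with its SE for each member that passed the filter in at least 1 line, in Hep3B (left) and Huh7 (right). Filled points have an adjusted p under 0.05 by edgeR's quasi-likelihood test, and colours mark the histone type; H2AC18, H2BC5 and H2BC21 lie left of 0 in Huh7 and right of 0 in Hep3B.

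Among the H2B genes of Huh7, 10 were tested, 6 rose and 3 fell, against 30.9% and 31.0% of all genes. H2BC12 had 304.5, 323 and 330.4 CPM in the shSLC6A8 libraries, against 175, 176 and 165 CPM in the shNC libraries. The groups were far apart, with a log2 fold change of 0.89 ± 0.05 (SE), and edgeR's quasi-likelihood test gave an adjusted p of 7.88e-11. H2BC11 had 12.2, 11.6 and 10.8 CPM in shSLC6A8 against 7.15, 5.69 and 6.83 CPM in shNC, a log2 fold change of 0.81 ± 0.12. H2BC4 had 14.45, 14.2 and 15.2 CPM in shSLC6A8 against 9.74, 7.69 and 10.95 CPM in shNC, a log2 fold change of 0.62 ± 0.11. Both rose without overlap between the groups (adjusted p = 9.78e-06 and 0.00015 by edgeR). The other H2B genes that rose had lower levels.

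H2BC9 had 1.94, 2.12 and 2.39 CPM in Huh7 shSLC6A8 against 0.983, 0.622 and 1.04 CPM in shNC. Its log2 fold change was 1.28 ± 0.27 and its adjusted p 0.000487 by edgeR. H2BC17 had 1.38, 1.68 and 1.595 CPM in shSLC6A8 against 0.670, 0.667 and 0.791 CPM in shNC, with a log2 fold change of 1.12 ± 0.29 (adjusted p = 0.00292 by edgeR). Neither gene's groups overlapped. H2BC8 had 3.16, 2.36 and 2.39 CPM in shSLC6A8 against 1.74, 1.56 and 2.08 CPM in shNC, with a log2 fold change of 0.55 ± 0.22 and an adjusted p of 0.0372 by edgeR. This call did not hold in DESeq2 (adjusted p = 0.0894), and it was lost without shNC replicate 1 (0.081), without shNC replicate 2 (0.107) and without shSLC6A8 replicate 1 (0.161).

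The H2B genes that fell in Huh7 were H2BC5, H2BC21 and H2BC15. H2BC5 had 34.4, 37.5 and 37.8 CPM in shSLC6A8 against 51.0, 51.4 and 52.7 CPM in shNC. H2BC21 had 21.1, 19.4 and 21.1 CPM in shSLC6A8 against 27.4, 26.4 and 26.0 CPM in shNC. In both, every shSLC6A8 library was below every shNC library, with log2 fold changes of -0.50 ± 0.06 (adjusted p = 1.86e-06) and -0.37 ± 0.07 (adjusted p = 0.000238) by edgeR. H2BC15 had 2.83, 3.56 and 2.78 CPM in shSLC6A8 against 4.6, 4.71 and 3.915 CPM in shNC, with a log2 fold change of -0.52 ± 0.17 and an adjusted p of 0.0115, which became 0.055 without shSLC6A8 replicate 3. Its deposited TPM ran the other way, at 6.18 ± 0.904 TPM in shSLC6A8 against 4.65 ± 0.569 TPM in shNC. It was the 1 called member of Huh7 for which counts and TPM differed in direction. Long annotated runs past the stem-loop stood on both sides: 1729 bases for H2BC21 among the genes that fell, and 1128 bases for H2AC6 and 1640 bases for H2BC9 among those that rose.

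Among the H2A genes of Huh7, 9 were tested, 4 rose and 1 fell, against 30.9% and 31.0% of all genes. H2AC6 had 113, 104 and 105.5 CPM in shSLC6A8 against 72.1, 76.6 and 72.1 CPM in shNC. The groups did not overlap, and the log2 fold change was 0.54 ± 0.05 with an adjusted p of 1.54e-07 by edgeR. H2AC18 had 31.4, 30.3 and 32.2 CPM in shSLC6A8 against 42.7, 46.6 and 42.7 CPM in shNC. It fell, with a log2 fold change of -0.49 ± 0.06 and an adjusted p of 4.1e-06. H2AC20 had 0.774, 1.20 and 1.22 CPM in shSLC6A8 against 0.536, 0.490 and 0.404 CPM in shNC, and rose with a log2 fold change of 1.14 ± 0.35 and an adjusted p of 0.00995. H2AC13, with 39.7, 25.9 and 23.0 estimated counts in shSLC6A8 against 5, 8.01 and 10.8 in shNC, had a log2 fold change of 1.67 ± 0.41 (adjusted p = 0.00195 by edgeR), and H2AC16, with 21, 22 and 16 against 8, 7 and 9, one of 1.07 ± 0.40 (adjusted p = 0.0271), which DESeq2 did not call (adjusted p = 0.091) and which was lost in 5 of the 6 fits that left out 1 library. H2AC8 had 1.90, 1.85 and 1.52 CPM in shSLC6A8 against 1.43, 1.96 and 2.58 CPM in shNC. H2AC11 had 0.688, 0.753 and 0.607 CPM against 1.03, 0.756 and 0.4997 CPM, and H2AC17 had 0.607, 0.445 and 0.569 CPM against 0.502, 0.489 and 0.708 CPM. The groups of these 3 genes overlapped, with log2 fold changes of -0.18 ± 0.25, -0.15 ± 0.37 and -0.07 ± 0.39.

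H1-2, the 1 linker histone with enough counts, had 77.7, 78.9 and 79.5 CPM in Huh7 shSLC6A8 against 42.4, 56.8 and 45.6 CPM in shNC. Every shSLC6A8 library was above every shNC library, and shNC replicate 2 was the highest of its group. H1-2 rose with a log2 fold change of 0.71 ± 0.08 and an adjusted p of 4.86e-06 by edgeR. Its GENCODE 29 transcript shares no window of 50 bases with another gene, so no read of that length within it is shared with a copy.

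Of the 5 H3 genes tested in Huh7, 1 fell and none rose, against 31.0% and 30.9% of all genes. H3C6 had 4.21, 3.39 and 4.10 CPM in shSLC6A8 against 5.76, 5.91 and 6.455 CPM in shNC, a log2 fold change of -0.64 ± 0.14 with an adjusted p of 0.000968 by edgeR. H3C3 had 1.498, 1.78 and 1.06 CPM in shSLC6A8 against 0.536, 1.07 and 0.9995 CPM in shNC, with a log2 fold change of 0.74 ± 0.33 that missed the threshold (adjusted p = 0.0615). It was called with library totals (adjusted p = 0.0354), without shNC replicate 2 (0.0389) and without shSLC6A8 replicate 3 (0.0324). Its lowest shSLC6A8 library lay just under its highest shNC library. H3C10 had 3.93, 2.43 and 3.64 CPM in shSLC6A8 against 2.86, 3.16 and 2.25 CPM in shNC, and H3C15 had 1.66, 0.855 and 0.797 CPM in shSLC6A8 against 1.07, 1.16 and 0.708 CPM in shNC. The groups of both overlapped.

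Of the 5 H4 genes tested in Huh7, 1 fell and none rose, against 31.0% and 30.9% of all genes. H4C8 had 8.945, 11.1 and 11.5 CPM in shSLC6A8 against 16.3, 18.6 and 15.4 CPM in shNC. The groups did not overlap, and the log2 fold change was -0.67 ± 0.11 with an adjusted p of 4.13e-05 by edgeR. In deposited TPM the groups of H4C8 did overlap, at 20.7 ± 4.35 TPM in shSLC6A8 against 23.1 ± 0.675 TPM in shNC. None of the windows of 50 bases in the GENCODE transcripts of H4C8 occurs in another gene. Its estimated counts nevertheless had a decimal part in 4 of the 6 Huh7 libraries, which can arise where reads are divided between features. The annotation used for the counting is not given in the sources used here, and whether reads of H4C8 were shared was not tested. H4C12 had 0.648, 0.821 and 0.797 CPM in shSLC6A8 against 0.849, 0.978 and 0.541 CPM in shNC, with a log2 fold change of -0.05 ± 0.35. H4C14 and H4C15 were not called singly by edgeR on all 6 libraries and are taken up with the other near-identical copies. H4C1 was below the filter in Huh7, with 7, 35 and 37 estimated counts in shSLC6A8 against 6, 8 and 8 in shNC.

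In the authors' deposited table, which marks genes at an adjusted p under 0.05 and a log2 fold change of at least 1 in either direction, 5 members were marked higher and 0 lower in Huh7, namely H2AC13, H2BC9, H2BC17, H4C1 and H4C14. Of all 62703 genes listed in the authors' deposited table of Huh7, 4.12% were marked (1.97% higher and 2.15% lower). At an adjusted p under 0.05 alone, the authors' deposited table had 10 of 66 members higher and 5 lower in Huh7, against 7.49% and 7.57% of all genes. In the authors' deposited table of Hep3B, 1 member was marked higher, H4C12, and 0 lower, against 0.716% and 0.936% of all genes. At an adjusted p under 0.05 alone, the authors' deposited table had 5 members higher and 0 lower in Hep3B, against 4.08% and 5.1% of all genes.

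The second comparison asks the same of Hep3B. Here histone genes rose or did not pass the test. Of 23 members tested, 7 rose and 0 fell by edgeR's quasi-likelihood test, which is 30.4% against 40.1% of all 16181 genes tested (18.9% higher and 21.2% lower). Over all genes that was 3061 higher and 3427 lower, a split that became 6230 higher and 1941 lower with library totals in place of TMM, under which 9 members were higher and 0 lower. At an unadjusted p under 0.05 the number lower was also 0, and DESeq2 and limma-voom called 0 lower. Negative fold changes were found for 2 of the 23, H2AC11 and H4C1. Every shSLC6A8 library was above every shNC library for 9 of the 23, and below for 0. Over all genes tested in Hep3B those shares were 25.1% and 25.9%. The median log2 fold change of those tested was 0.60 against 0.01 over all genes tested. Here too a member could pass the filter on either group alone, as H4C9 did on its shSLC6A8 counts. For such members the filter favoured a higher direction.

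Of the 6 H2B genes tested in Hep3B, 3 rose, against 18.9% of all genes. H2BC12 had 30.9, 27.6 and 30.95 CPM in shSLC6A8 against 15.6, 19.7 and 18.25 CPM in shNC, a log2 fold change of 0.74 ± 0.10 with an adjusted p of 0.000192 by edgeR. H2BC5 had 18.9, 15.2 and 20.3 CPM in shSLC6A8 against 9.31, 9.18 and 9.77 CPM in shNC, a log2 fold change of 0.94 ± 0.12 with an adjusted p of 0.000136. H2BC21 had 2.18, 2.48 and 2.845 CPM in shSLC6A8 against 1.58, 1.52 and 1.33 CPM in shNC, a log2 fold change of 0.75 ± 0.21 with an adjusted p of 0.0165. The groups of these 3 genes did not overlap. The call of H2BC21 was lost without shNC replicate 3 (adjusted p = 0.0561) and without shSLC6A8 replicate 3 (0.0618). H2BC11 had 3.49, 2.16 and 2.34 CPM in shSLC6A8 against 1.63, 2.13 and 1.21 CPM in shNC, and its log2 fold change of 0.68 ± 0.27 missed the threshold (adjusted p = 0.068). It was called with library totals (adjusted p = 0.0224), with no filter (0.0306), with all 12 libraries in 1 fit (0.0214) and without shSLC6A8 replicate 2 (0.0401). Its deposited TPM ran the other way, at 2.76 ± 1.05 TPM in shSLC6A8 against 3.35 ± 0.192 TPM in shNC. H2BC4 had 1.06, 1.11 and 1.38 CPM in shSLC6A8 against 0.884, 1.25 and 1.18 CPM in shNC, and H2BC15 had 2.49, 1.47 and 1.81 CPM in shSLC6A8 against 2.002, 1.44 and 1.48 CPM in shNC. Both overlapped, with log2 fold changes of 0.10 ± 0.27 and 0.23 ± 0.27. H2BC17, below the filter, had 0.307, 0.305 and 0.347 CPM in shSLC6A8 against 0.419, 0.323 and 0.409 CPM in shNC.

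Of the 6 H2A genes tested in Hep3B, 2 rose, against 18.9% of all genes. H2AC6 had 28.7, 25.5 and 28.1 CPM in shSLC6A8 against 19.9, 18.6 and 19.5 CPM in shNC, a log2 fold change of 0.51 ± 0.08 with an adjusted p of 0.000494 by edgeR. H2AC18 had 9.60, 7.25 and 9.26 CPM in shSLC6A8 against 4.08, 6.645 and 5.575 CPM in shNC, a log2 fold change of 0.68 ± 0.18 with an adjusted p of 0.013, which became 0.0582 without shSLC6A8 replicate 1. Neither pair of groups overlapped. H2AC20 had 1.27, 0.802 and 1.31 CPM in shSLC6A8 against 0.902, 0.7845 and 1.125 CPM in shNC, and its groups overlapped. H2AC8 had 0.477, 0.649 and 0.654 CPM in shSLC6A8 against 0.419, 0.461 and 0.256 CPM in shNC, without overlap but also without a call (log2 fold change 0.63 ± 0.38). H2AC17 had 1.06, 0.611 and 0.884 CPM against 0.745, 0.415 and 0.256 CPM, and H2AC11 had 0.477, 0.7635 and 0.615 CPM against 1.12, 0.369 and 0.563 CPM. Both overlapped and were not called.

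H1-2 had 8.55, 7.44 and 9.96 CPM in Hep3B shSLC6A8 against 7.96, 9.275 and 8.64 CPM in shNC. The groups overlapped and the log2 fold change was 0.00 ± 0.13 (adjusted p = 0.984 by edgeR). Of the H3 genes, 3 were tested and none was called, against 40.1% of all genes. H3C6 had 1.26, 0.7635 and 1.04 CPM in shSLC6A8 against 0.698, 0.461 and 0.8695 CPM in shNC, and H3C10 had 0.750, 0.687 and 1.115 CPM in shSLC6A8 against 0.512, 0.692 and 0.614 CPM in shNC. H3C3 had 0.545, 0.229 and 0.654 CPM in shSLC6A8 against 0.4655, 0.277 and 0.409 CPM in shNC. The groups of all 3 overlapped.

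Of the 7 H4 genes tested in Hep3B, 2 rose, against 18.9% of all genes. H4C12 had 1.81, 1.26 and 1.77 CPM in shSLC6A8 against 0.419, 0.369 and 0 CPM in shNC, and its fitted log2 fold change was 2.56 ± 0.56 with an adjusted p of 0.00474 by edgeR. Its copy H4C11 held counts in the library at 0, as given with the near-identical genes. H4C9 rose with a log2 fold change of 1.31 ± 0.44 and an adjusted p of 0.0384, on 22, 13 and 11 estimated counts in shSLC6A8 against 4, 6 and 4 in shNC. DESeq2 did not call it (adjusted p = 0.13), and its call was lost in 5 of the 6 fits that left out 1 library. RefSeq places H4C9 wholly inside the span of H2BC12 on the other strand. The strand setting of the counting is not given in the sources used here. In RefSeq, 11 members overlapped another gene. Among these, H3C15 lies wholly inside the span of H4C15 on the other strand. The long non-coding RNA H2BC6-AS1 covers 83.7% of the span of H2BC5. H4C1 had 1.98, 2.02 and 1.65 CPM in shSLC6A8 against 2.002, 2.17 and 1.74 CPM in shNC, with a log2 fold change of -0.06 ± 0.21. H4C8 had 0.750, 0.725 and 0.9997 CPM in shSLC6A8 against 0.931, 0.7845 and 0.460 CPM in shNC, and its groups overlapped.

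Other RNAs that lack a poly(A) tail were looked at beside these values. A list of 20 such RNAs summed to 12.7, 13.5 and 22.5 CPM in Hep3B shSLC6A8, against 9.71, 14.3 and 11.5 CPM in Hep3B shNC, and to 3.37, 5.99 and 4.12 CPM in Huh7 shSLC6A8, against 9.58, 5.48 and 4.98 CPM in Huh7 shNC. Of 4 tested in Hep3B, 1 rose, the small nuclear RNA RN7SK, with 192, 183 and 197 estimated counts in shSLC6A8 against 58, 115 and 65 in shNC (log2 fold change 0.89 ± 0.22, adjusted p = 0.00826 by edgeR). Of 3 tested in Huh7, none was called. Over all genes tested, 18.9% rose in Hep3B and 61.8% were called in Huh7. The part of RNA without a tail in the histone values was not tested.

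The difference of the knockdown response between the lines was tested as an interaction in 1 fit of all 12 libraries. Of 33 members tested, 7 had a higher and 4 a lower response in Hep3B than in Huh7, which is 33.3% against 47.1% of all 18570 genes tested (23.1% higher and 24.0% lower). H2BC5, H2AC18 and H2BC21 rose in Hep3B and fell in Huh7. For H2BC5 the difference of log2 fold changes, Hep3B minus Huh7, was 1.45 ± 0.13 (adjusted p = 8.73e-08 by edgeR). For H2AC18 it was 1.18 ± 0.18 (adjusted p = 3.96e-05), and for H2BC21 1.13 ± 0.17 (adjusted p = 4.02e-05). For H1-2 the difference had the opposite sign, at -0.70 ± 0.16 (adjusted p = 0.00197 by edgeR). H1-2 was level in Hep3B and higher under the knockdown in Huh7. H3C6 differed by 1.25 ± 0.33 (adjusted p = 0.00538) and H4C8 by 0.84 ± 0.31 (adjusted p = 0.0351). For both the fall in Huh7 met a value near or above 0 in Hep3B, and that of H4C8 was lost in 5 of the 12 fits that left out 1 library. H2BC12 and H2AC6 rose in both lines, and their differences were -0.14 ± 0.10 and -0.03 ± 0.09 (adjusted p = 0.256 and 0.811), which does not show that the responses were alike. Without Hep3B shNC replicate 1 the difference of H2BC12 was -0.24 and was called (adjusted p = 0.0466 by edgeR).

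Copies of some members are so alike that a read cannot be placed in 1 of them, and for these the split between rows has to be looked at before the values. In windows of 50 bases over the GENCODE 29 transcripts, 13 of 62 members had more than 50% of their windows in another gene, 27 had none, and the median was 1.6%. H4C14 shared 97.5% of its windows with H4C15, H4C12 all of its windows with H4C11, H3C15 all of its windows with H3C14, and H2AC13 62.3% with H2AC14. H2BC12 shared 74.1% of its windows with other genes, among them H2BC12L (H2BFS in GENCODE 29), a copy outside the rule that was listed at 0 in all 12 libraries. Estimated counts with a decimal part can arise where reads are divided between features, but whole counts do not show that none are shared: H4C11, H4C12, H3C14 and H3C15 had whole counts in all libraries. Counts with a decimal part made up 23.6% of the members' values above 0 in Huh7 and 17.2% in Hep3B, against 36.2% in Huh7 and 39.0% in Hep3B over all genes. H4C14 and H4C15 had them in 6 of 6 Huh7 libraries and 5 of 6 Hep3B libraries each, and H2BC12 in 4 and 4.

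The reads of H4C14 and H4C15, both on chromosome 1 and coding for H4, were split unevenly between libraries of 1 group. In Huh7 shSLC6A8, H4C14 had 297, 655 and 747 estimated counts and H4C15 had 228, 27.8 and 50.7. In Huh7 shNC, H4C14 had 223, 264 and 215 and H4C15 had 136, 84.7 and 219.6. Singly, neither was called in Huh7 (log2 fold changes of 1.04 ± 0.37 and -0.69 ± 0.95, adjusted p = 0.0667 and 0.574 by edgeR). Other settings did call them. H4C14 was called higher by DESeq2 (adjusted p = 0.0106), by limma-voom (0.00482), with library totals (0.0438) and without shSLC6A8 replicate 1 (4.89e-07). H4C15 was called lower by limma-voom (log2 fold change -1.29, adjusted p = 0.0489) and without shSLC6A8 replicate 1 (-2.14, adjusted p = 0.00768 by edgeR). Their sum was 21.25, 23.4 and 30.3 CPM in Huh7 shSLC6A8 against 16.03, 15.5 and 18.1 CPM in Huh7 shNC, without overlap. Fitted as 1 row, a step chosen after seeing the data, the pair rose with a log2 fold change of 0.59 ± 0.12 and an adjusted p of 0.000582 by edgeR.

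In Hep3B the same pair had opposite splits as well. H4C14 had 176, 38 and 148 estimated counts in shSLC6A8 against 39.9, 3.26 and 32.5 in shNC, and H4C15 had 68.5, 146 and 54.2 in shSLC6A8 against 5.14, 68.7 and 9.46 in shNC. The sum was 8.31, 7.02 and 7.77 CPM in shSLC6A8 against 2.095, 3.32 and 2.15 CPM in shNC, without overlap. As 1 row it rose with a log2 fold change of 1.61 ± 0.18 and an adjusted p of 8.4e-05 by edgeR, while neither gene was called singly (adjusted p = 0.051 and 0.174). H4C14 was called with library totals (adjusted p = 0.0267) and among genes with a mean of at least 10 counts (0.0478), and H4C15 without shNC replicate 2 (log2 fold change 3.25, adjusted p = 0.0045 by edgeR). The difference between lines for the pair was 1.02 ± 0.23 (adjusted p = 0.00172).

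H4C11 and H4C12 had fewer counts. In Hep3B shNC, H4C12 had 9, 8 and 0 estimated counts, and H4C11 had 0, 0 and 14. Of the windows of H4C11, 81.2% are shared with H4C12, and which copy the 14 counts came from was not tested. H4C11 was at 0 in the other 11 libraries. Summed, the pair had 1.81, 1.26 and 1.77 CPM in Hep3B shSLC6A8 against 0.419, 0.369 and 0.716 CPM in Hep3B shNC. As 1 row its log2 fold change was 1.69 ± 0.33 with an adjusted p of 0.00275 by edgeR, against the 2.56 of H4C12 alone. In Huh7, where H4C11 had no counts, the value was -0.05 ± 0.35 for the pair and for H4C12.

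**Figure D3:**
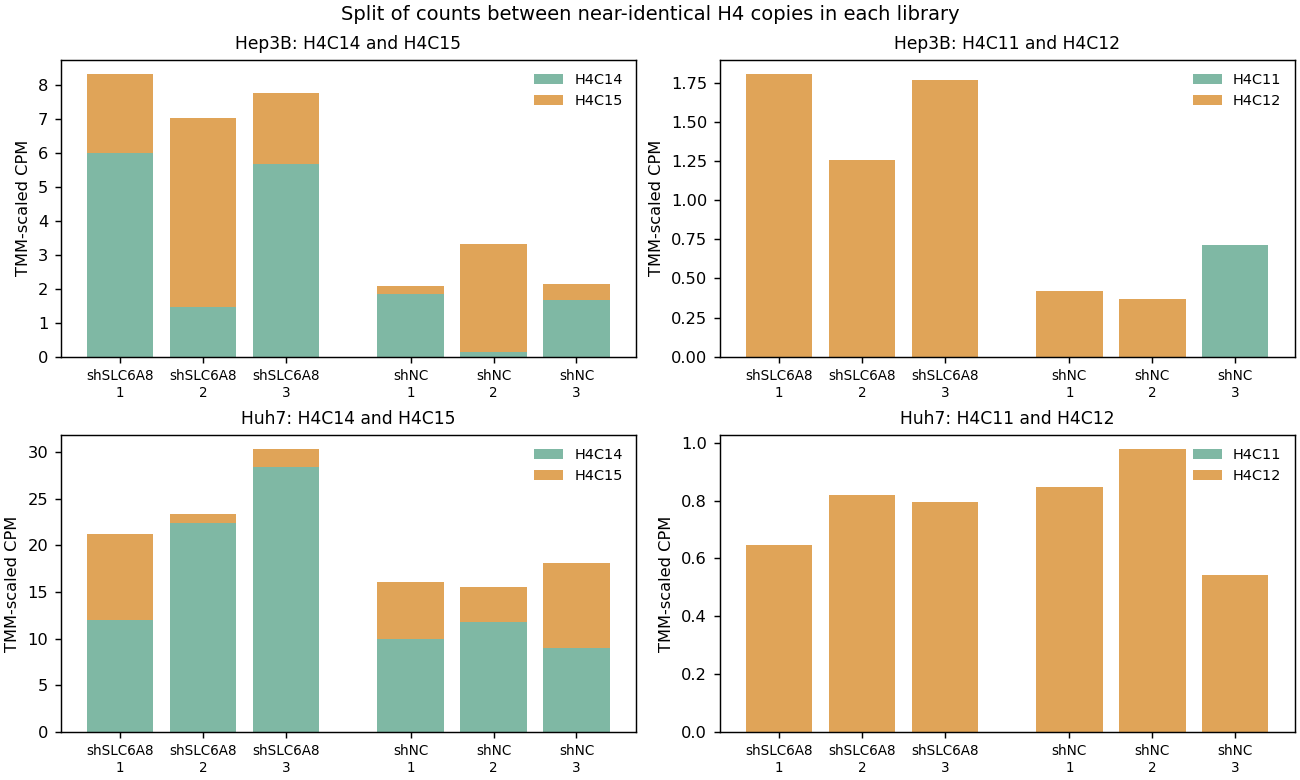
Stacked TMM-scaled CPM of H4C14 and H4C15 (left column) and of H4C11 and H4C12 (right column) in each library of Hep3B (top) and Huh7 (bottom), with shSLC6A8 libraries left of shNC libraries. The share listed under 1 copy changes between libraries of 1 group, for example in Hep3B replicate 2 of both hairpins for H4C14, while the height of the stack is closer within a group.

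H2AC13 and H2AC14 as 1 row rose in Huh7 by a log2 fold change of 1.60 ± 0.39 (adjusted p = 0.00195 by edgeR), with 41, 33 and 25 counts in shSLC6A8 against 5, 9 and 14 in shNC. In Hep3B the pair had 6, 2 and 1 counts in shSLC6A8 against 1, 1 and 5 in shNC, which is too few to test. H2AC18 and H2AC19, both on chromosome 1, are known as near-identical copies. H2AC19 was at 0 in every library, so reads of either may stand under H2AC18.

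Summed over all members of a type, a measure that does not depend on the split between copies of that type, the direction was upward for H2A and H2B in both lines. These sums were not tested. In Huh7, H2B summed to 414 ± 14.6 CPM in shSLC6A8 against 275 ± 4.24 CPM in shNC (SD, n = 3), a ratio of 1.503, and H2A to 148 ± 4.81 CPM against 124 ± 3.56 CPM, a ratio of 1.19. Each of these Huh7 rises came from 1 gene. H2BC12 had 319 ± 13.4 CPM in shSLC6A8 against 172 ± 5.88 CPM in shNC, and H2AC6 had 107 ± 4.92 CPM against 73.6 ± 2.62 CPM. The rest of the H2B sum and of the H2A sum was lower in shSLC6A8 than in shNC. H1 summed to 79.6 ± 0.852 CPM in Huh7 shSLC6A8 against 48.8 ± 7.69 CPM in shNC. H4 was at 38.5 ± 6.31 CPM in shSLC6A8 against 35.2 ± 0.952 CPM in shNC, and its 3 shSLC6A8 libraries of 32.6, 37.7 and 45.2 CPM lay on both sides of the shNC libraries of 34.2, 36.1 and 35.3 CPM. H3 was at 11.3 ± 1.24 CPM in shSLC6A8 against 11.7 ± 0.609 CPM in shNC, a log2 ratio of -0.05 that turned to 0.05 with library totals and to 0.48 with deposited TPM. The Huh7 total over all types was 690.5 ± 17.2 CPM in shSLC6A8 against 494 ± 12.5 CPM in shNC. H2BC12 alone made up 46.2% of it in shSLC6A8 against 34.8% in shNC, as a share of counts and not of molecules.

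In Hep3B the sums were higher in shSLC6A8 for 4 of the 5 types. H4 summed to 13.4 ± 0.988 CPM in shSLC6A8 against 6.91 ± 1.05 CPM in shNC, a ratio of 1.93, and H2B to 57.75 ± 5.09 CPM against 34.0 ± 1.94 CPM, a ratio of 1.70. H2A summed to 40.0 ± 3.42 CPM in shSLC6A8 against 27.65 ± 0.209 CPM in shNC, and H3 to 3.645 ± 0.538 CPM against 2.26 ± 0.404 CPM. For these 4 types every shSLC6A8 library was above every shNC library. H1 was level, at 8.84 ± 1.24 CPM in shSLC6A8 against 8.84 ± 0.809 CPM in shNC. The Hep3B total was 124 ± 10.9 CPM in shSLC6A8 against 79.6 ± 3.31 CPM in shNC. Scaling by library totals instead of TMM moved the median log2 fold change of all genes to 0.11 in Huh7 and 0.20 in Hep3B, and histone values moved up with it.

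**Figure D4:**
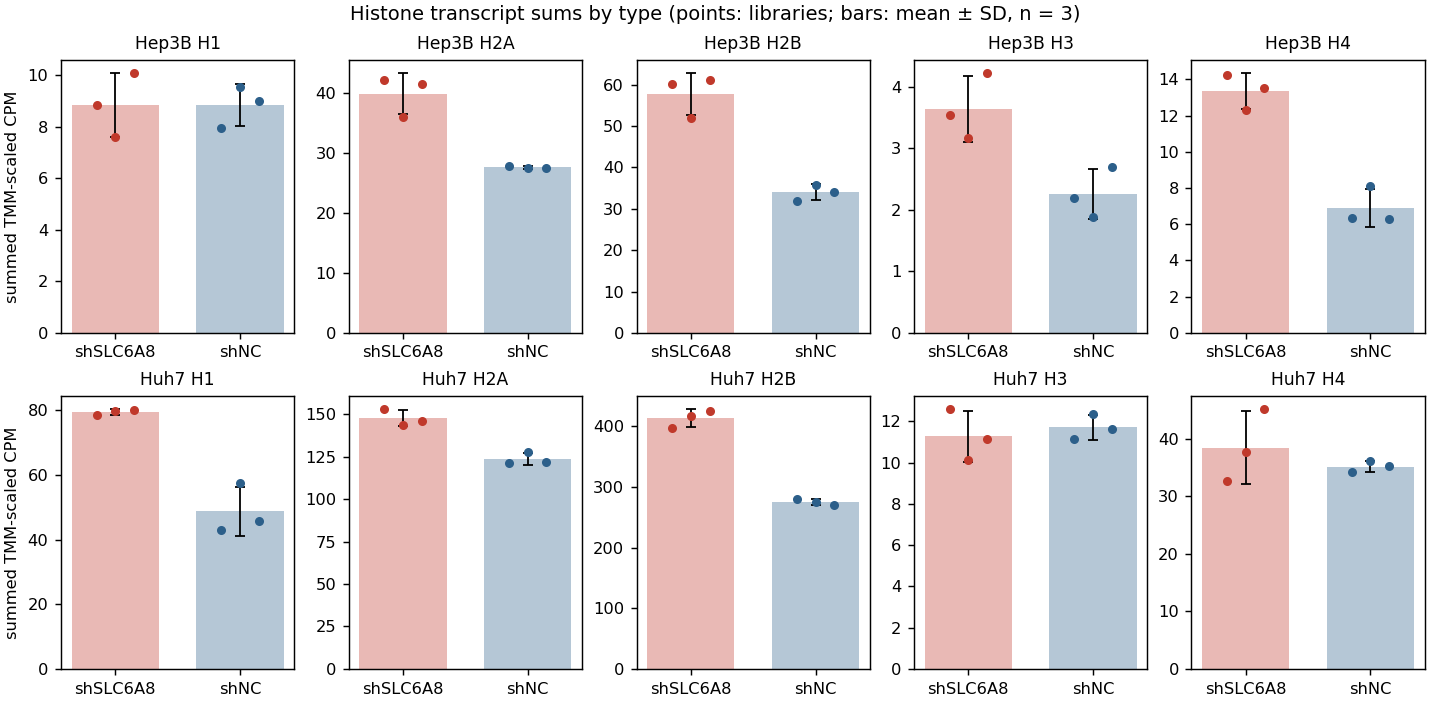
Summed TMM-scaled CPM of the members of each histone type in Hep3B (top) and Huh7 (bottom), shSLC6A8 left of shNC, each panel with its own axis from 0. Points are libraries and bars are means ± SD (n = 3); the groups overlap for H1 in Hep3B and for H3 and H4 in Huh7, and are apart in the other 7 panels.

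Many H2A and H2B genes sit back to back and are read away from a shared stretch between their start sites, so a pair can be looked at as a unit. RefSeq positions gave 12 pairs of members with divergent start sites at most 1000 bases apart, and in 5 of them both genes were tested in Huh7. H2BC4 and H2AC6, 246 bases apart, both rose, with log2 fold changes of 0.62 ± 0.11 and 0.54 ± 0.05. H2BC21 and H2AC20, 236 bases apart, were called in opposite directions, H2BC21 at -0.37 ± 0.07 and H2AC20 at 1.14 ± 0.35. Reads of H2AC20 may be shared with the more abundant H2AC18, as given with the near-identical genes. In the other 3 pairs the H2B gene was called and its H2A neighbour was not: 0.81 ± 0.12 for H2BC11 and -0.15 ± 0.37 for H2AC11, 0.55 ± 0.22 for H2BC8 and -0.18 ± 0.25 for H2AC8, and 1.12 ± 0.29 for H2BC17 and -0.07 ± 0.39 for H2AC17. A difference within a pair was not tested. In Hep3B, H2AC6 rose while H2BC4 was at 0.10 ± 0.27, and H2BC21 rose while H2AC20 was at 0.28 ± 0.31.

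**Figure D5:**
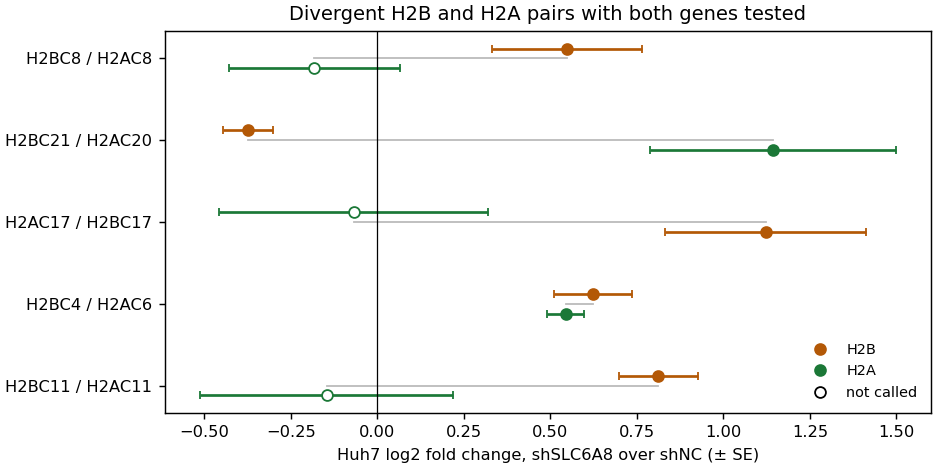
Huh7 log2 fold change of shSLC6A8 over shNC with its SE for the 5 divergent pairs with both genes tested, H2B in orange and H2A in green. Open points were not called by edgeR; in the H2BC21 and H2AC20 pair the points lie on opposite sides of 0.

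The control libraries show how far the lines differ under the control hairpin. Of 33 members tested in Hep3B shNC against Huh7 shNC, 4 were higher and 23 lower in Hep3B by edgeR's quasi-likelihood test. That is 81.8%, close to the 81.2% of all genes (39.9% higher and 41.3% lower), but in the members most calls were downward. The lines came in separate deposited tables, and the values across them are approximate. A member could also pass the filter of this fit on the counts of either line alone, which favours its later direction. H2AC7, H2AC13, H2AC16, H2BC8, H2BC9, H2BC17, H2BC18, H3C1, H3C15 and H4C3 did not pass in the fit of Hep3B alone. H4C1, H4C5 and H4C9 did not pass in the fit of Huh7 alone. The counts of calls in each direction therefore partly restate the filter. All 10 H2B genes tested were lower in Hep3B, and H2BC12 had a log2 fold change of -3.24 ± 0.07 (adjusted p = 2.19e-16), from 15.6, 19.7 and 18.25 CPM in Hep3B shNC against 175, 176 and 165 CPM in Huh7 shNC. H2BC21 was at -4.13 ± 0.12, H4C8 at -4.48 ± 0.19, H2AC18 at -2.99 ± 0.13, H1-2 at -2.45 ± 0.12 and H2AC6 at -1.90 ± 0.07. Those higher in Hep3B were H4C9 at 2.77 ± 0.86, H4C1 at 2.64 ± 0.43, H4C5 at 1.24 ± 0.53 and H2AC20 at 0.97 ± 0.35, all by edgeR. The call of H4C5 (adjusted p = 0.0396) was lost in DESeq2 (0.0588), with library totals (0.0511), with no filter (0.0525) and in 4 fits that left out 1 control library. That of H2AC20 (adjusted p = 0.0169) was lost without Huh7 shNC replicate 3 (0.0553) and without Hep3B shNC replicate 3 (0.0665). H2AC13 and its copy H2AC14 together had 1, 1 and 5 counts in Hep3B shNC against 5, 9 and 14 in Huh7 shNC, and as 1 row had a log2 fold change of -1.78 ± 0.69 (adjusted p = 0.0265 by edgeR).

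The wider histone supply was described from lists chosen with earlier results of these data known. Over all genes tested, 30.9% were called higher and 31.0% lower in Huh7, and 18.9% higher and 21.2% lower in Hep3B. Of 18 genes for transcription and 3′ processing of histone messages, 5 rose and 8 fell in Huh7, with a median log2 fold change of -0.03. CPSF2, a subunit of the processing complex, rose by 0.66 ± 0.06, and CASP8AP2, a factor of histone gene transcription, rose by 0.70 ± 0.09. ZNF473, a zinc finger protein of the same processing machinery, fell by 0.80 ± 0.07 on the log2 scale, and HINFP, a regulator of H4 genes, fell by 0.48 ± 0.07. SLBP, which binds the stem-loop, was at -0.15 ± 0.06 in Huh7 (adjusted p = 0.0277 by edgeR) and at 0.23 ± 0.07 in Hep3B (adjusted p = 0.0253). NPAT, the activator of histone clusters, named here after its values were seen, was not called in either line (0.10 ± 0.10 in Huh7 and -0.09 ± 0.13 in Hep3B). In Hep3B, 3 of the 18 rose and 4 fell, among them LSM11, a part of the particle that cuts histone messages, which fell by 0.74 ± 0.15 on the log2 scale.

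Genes of DNA synthesis and S phase moved upward in Huh7, where 29 of 30 rose, 0 fell and the median log2 fold change was 0.68. Over all genes tested in Huh7, 30.9% were called higher and 31.0% lower. TYMS, which makes thymidylate, rose by 1.16 ± 0.05, MCM6 and MCM2 of the replicative helicase rose by 1.125 ± 0.05 and 1.04 ± 0.05, and cyclin A2 (CCNA2) rose by 1.15 ± 0.05. In Hep3B, 15 of 30 rose and 4 fell with a median of 0.23, against 18.9% and 21.2% of all genes tested. CCNA2 and MCM2 were among those that fell, at -0.17 ± 0.05 and -0.21 ± 0.05. For 16 of the 30 the response was lower in Hep3B than in Huh7 by the interaction test, and for 0 it was higher. Over all genes tested the response was lower for 24.0% and higher for 23.1%. Whether the share of cells in S phase differed between the groups was not tested.

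Histone variants outside the clusters and the chaperones that carry histones were measured as well. Of 11 replacement variants tested, 8 rose and 2 fell in Huh7 and 3 rose and 2 fell in Hep3B. The shares of all genes called higher and lower were 30.9% and 31.0% in Huh7, and 18.9% and 21.2% in Hep3B. CENPA, the H3 of centromeres, rose in Huh7 by 1.14 ± 0.12 and fell in Hep3B by 0.47 ± 0.12 on the log2 scale. H2AX rose in both, by 0.40 ± 0.08 in Huh7 and 0.49 ± 0.09 in Hep3B. Of 18 chaperones, 10 rose and 7 fell in Huh7 and 8 rose and 2 fell in Hep3B. NASP, which carries H3 and H4, rose in both lines (0.25 ± 0.05 in Huh7 and 0.38 ± 0.04 in Hep3B), whereas ASF1A fell in Huh7 by 0.81 ± 0.05 on the log2 scale and rose in Hep3B by 0.37 ± 0.08.

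The members that did not pass the filter carry little weight but belong to the account. Apart from H1-2, the H1 genes had at most 10 estimated counts in any library. In Hep3B, H2BC8 had 11, 8 and 9 counts in shSLC6A8 against 5, 0 and 1 in shNC, and H2BC9 had 12, 16 and 10 in shSLC6A8 against 2, 4 and 6 in shNC, without overlap in either gene. H3C15 had 5, 14 and 9 counts in Hep3B shSLC6A8 against 0, 2 and 0 in Hep3B shNC, a ratio of 10.8 after scaling with an exact 95% interval of 2.71 to 93.3 that covers counting error only. With its identical copy H3C14, which held 2 counts in shNC replicate 1, the pair had 2, 2 and 0 in shNC. H4C3 had 1, 2 and 3 counts in Hep3B shSLC6A8 against 3, 11 and 5 in shNC. At these counts a small difference was not detectable.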

How the data were processed

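Libraries were made from total RNA with a SMARTER mRNA-Seq kit, per the labels' protocols. GRCh38.p14 is the build in the submitters' processing notes, while for the aligner, the counter, the annotation and strandedness a name is not given in the sources used here. The authors deposited 1 table per line with estimated counts per gene, TPM per library, and their own comparison as a fold ratio, its log2, a p-value and an adjusted p-value. The members and all gene lists were chosen with earlier results of these data known.

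Estimated counts were rounded to whole numbers. Each line was fitted on its 6 libraries with edgeR 4.0.16 (R 4.3.3; filterByExpr, TMM, robust quasi-likelihood test, Benjamini-Hochberg adjustment over all genes tested, threshold 0.05). The interaction and the comparison of control lines came from 1 fit of 12 libraries. The SE is the fold change divided by the root of F, so it is approximate. DESeq2 1.42.0 and limma-voom (limma 3.58.1) were alternatives, with other scalings, filters, a replicate block, each library left out and near-identical copies merged. Members with at least 10 counts in every library of a line are given in full, and from each context list up to 4 genes per line and direction by adjusted p were eligible to be named. No 2 libraries of a group differed by as little as sampling noise. Sums by type have no test. Stem-loops came from GENCODE 29 and promoters from RefSeq. Intervals cover counting error only. Some listed genes are counted with their lists but are not reported singly here.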

Additional observations from a re-analysis of the deposited data

Results flagged for a closer look

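The test of the difference between lines called 11 members, each given here as the log2 fold change in Hep3B minus that in Huh7, with edgeR's quasi-likelihood test. Among abundant members the differences were 1.45 for H2BC5, 1.18 for H2AC18, 1.13 for H2BC21 and -0.70 for H1-2. H3C6 had 1.25 and H4C8 had 0.84. H4C12 had 2.62, which was 1.75 ± 0.48 (adjusted p = 0.00617) when its copy H4C11 was merged with it. H3C15 had 3.08, on 28 counts in Hep3B shSLC6A8 against 2 in Hep3B shNC. Merged with H3C14 it had 2.19 ± 0.88 (adjusted p = 0.0498 by edgeR). In RefSeq, H3C15 lies wholly inside the span of H4C15 on the other strand. H2BC17 had -1.38, H4C1 had -1.65 and H4C3 had -2.61, all on few counts in at least 1 group. Each of these last 4 calls was lost without 1 or more single libraries.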

How the results depend on the processing

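Of the members' counts of calls, those of Huh7 kept within 1.5 times under every alternative. For Hep3B, 4 members were higher at an adjusted p under 0.01. There 1 was lower with no filter (H4C11, on 14 counts in shNC replicate 3) and 1 with all 12 libraries in 1 fit (H4C3). Over all Hep3B genes, library totals gave 6230 higher and 1941 lower, and the 0.01 threshold gave 1774 higher. With 1 library left out, the members with a lower response in Hep3B ranged from 2 to 4 (2 without Huh7 shSLC6A8 replicate 3 or Hep3B shNC replicate 2), and those higher in Hep3B shNC than in Huh7 shNC from 2 to 4 (2 without Hep3B shNC replicate 3).

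The log2 ratios of summed levels moved with the scaling. With library totals they were 0.59 over all types, 0.36 for H2A, 0.69 for H2B and 0.05 for H3 in Huh7, and 0.82 over all types, 0.19 for H1, 0.72 for H2A, 0.96 for H2B and 1.14 for H4 in Hep3B. With deposited TPM they were 0.80 over all types, 0.90 for H1, 0.33 for H2A, 0.93 for H2B, 0.48 for H3 and 0.62 for H4 in Huh7, and 0.78, 0.20, 0.70, 0.91, 1.03 and 0.77 in the same order in Hep3B. Kept to members with 10 counts in every library, the H4 sum of Hep3B was H4C1 alone, at -0.06. With 1 library left out, H1 in Hep3B ranged from -0.1 to 0.1, H3 in Huh7 from -0.14 to 0.02 and H4 in Huh7 from 0.0 to 0.24. The cause was not tested.

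Fold changes that changed sign were not called under the setting that turned them, with the exception of H4C15 in Huh7, which was at 0.59 when merged with H4C14 (adjusted p = 0.000582 by edgeR). Library totals gave 0.03 for H2AC17 and 0.05 for H4C12 in Huh7, 0.04 for H2AC11 and 0.13 for H4C1 in Hep3B, and 0.05 for the difference of H2AC6 between lines. H1-2 in Hep3B was at 0.0 with limma-voom. With 1 library left out, the Huh7 ranges were -0.37 to 0.05 for H2AC8, -0.38 to 0.13 for H2AC11, -0.16 to 0.13 for H2AC17, -0.23 to 0.36 for H3C15 and -0.27 to 0.13 for H4C12. Those of Hep3B were -0.1 to 0.1 for H1-2, -0.46 to 0.41 for H2AC11, -0.04 to 0.2 for H2BC4, -0.01 to 0.4 for H2BC15, -0.15 to 0.02 for H4C1, 0.0 to 0.43 for H4C5 and -0.06 to 0.39 for H4C8. The difference of H2AC6 ranged from -0.07 to 0.02.

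Correlations of the deviations of libraries with the same replicate number were 0.005, -0.145 and -0.066 in Huh7 and -0.089, -0.133 and 0.257 in Hep3B. Between Hep3B libraries of different number they reached 0.41 (shSLC6A8 replicate 2 with shNC replicate 1) and -0.352 (shSLC6A8 replicate 3 with shNC replicate 1). With a replicate block, 9 members were higher and 6 lower in Huh7, 8 and 0 in Hep3B, 7 and 3 for the difference between lines and 3 and 23 for the control lines. H1-2 in Hep3B was then at 0.0. The block also called H4C14 (1.94, adjusted p = 0.000477 by edgeR) and H4C15 (1.72, adjusted p = 0.00802) in Hep3B and H2BC15 for the difference between lines, while H2BC8 (0.0539) and H2AC16 (0.0524) in Huh7, H4C9 in Hep3B (0.066), H4C8 (0.0566) and H2BC17 (0.0512) for the difference between lines and H4C5 for the control lines (0.0583) were not called.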
